A study of Mus musculus with 9 samples.

Results

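Cd68, Lyz2, Lilr4b and Nckap1l are genes best known from macrophages and other myeloid blood cells, measured here in EHE17, a mouse tumour line labelled endothelial. They were taken by name, as genes known from myeloid cells, from a deposited table of MGH-CP1 against vehicle, and are 4 of its 471 genes. That table holds only genes the authors picked for a change between these same libraries, so a change in each of the 4 is a condition of being listed. Lilr4b and Cd68 were higher with MGH-CP1, by 8.12-fold and 4.49-fold, while Nckap1l fell by 1.98 and Lyz2 by 1.02 on the log2 scale.

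MGH-CP1 keeps TEAD transcription factors from being palmitoylated; these factors bring the coactivators YAP and TAZ to DNA. Cultured EHE17 cells received MGH-CP1 at 10 µM for 16 h, dinaciclib (an inhibitor of cyclin-dependent kinases) at 300 nM for 16 h, or the DMSO vehicle, with 3 biological replicates per group. Every group carries the genotype TC+/+ Cdkn2a -/-, so the vehicle cells are tumour cells too, and the design has no cells without it. All libraries come from the same line, so the values describe that line and not a set of independent tumours.

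Myeloid cells engulf particles, break them down in lysosomes and move by rapid turnover of actin. CD68 is a heavily glycosylated protein of the lysosomal membrane, a relative of the LAMP proteins, and lysozyme is a secreted enzyme that cuts the bacterial cell wall. Lilr4b encodes gp49A, an immunoglobulin-like receptor of mast cells and macrophages. Nckap1l encodes HEM1, the subunit by which blood cells build the WAVE complex, which switches on branched actin assembly; other tissues use its relative Nckap1.

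MGH-CP1 libraries held 19934012 to 24310817 counted reads and vehicle libraries 31852117 to 40020833. Of 30 endothelial identity genes, 5 are in a deposited table. In vehicle cells the VEGF receptor gene Kdr stood at 90.3 ± 2.90 FPKM (fragments scaled to gene length and library total). The ETS factor gene Fli1 stood at 32.0 ± 0.609 FPKM, Tal1 at 17.6 ± 0.727 FPKM and Gata2 at 9.11 ± 0.498 FPKM. But Vwf, the von Willebrand factor gene, stood at 0.149 ± 0.0200 FPKM (each with SD, n = 3). Vwf was the only endothelial identity gene in the MGH-CP1 table, and it fell with treatment: it stood at 0.0454 ± 0.0203 FPKM with MGH-CP1, a log2 change of -1.72 (SE 0.31; edgeR quasi-likelihood fit, Benjamini-Hochberg adjusted p = 0.000547). Its part in the results below was not tested. Of 98 genes known from leukocytes, 5 are in the MGH-CP1 table: the 4 genes described here and Lilrb4a. The lists were written with earlier results known and hold these 5, so the count is no evidence. Leukocyte genes outside the lists were not counted. The levels of general leukocyte markers such as Ptprc, Csf1r and Itgam were not analysed here, so the tables do not show whether any blood cells were present. In these bulk libraries, more cells of a type and more RNA per cell cannot be told apart. The ribosomal RNA gene CT010467.1 also moved with treatment. It took 0.342% to 0.803% of counts with MGH-CP1 and 0.0402% to 0.125% in vehicle, and its part in the results below was not tested.

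All 4 genes passed edgeR's quasi-likelihood test, 2 higher and 2 lower. So did 100% of the 355 listed genes with enough counts to test, 49.3% higher and 50.7% lower, so that this count says nothing particular about the 4. Their groups did not overlap in normalised count (each count over its library's deposited size factor), as was true of 98.6% of tested genes. The exact permutation test over the 6 libraries (two-sided) gave p = 0.1 for each of the 4, the smallest this design allows.

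**Figure D1:**
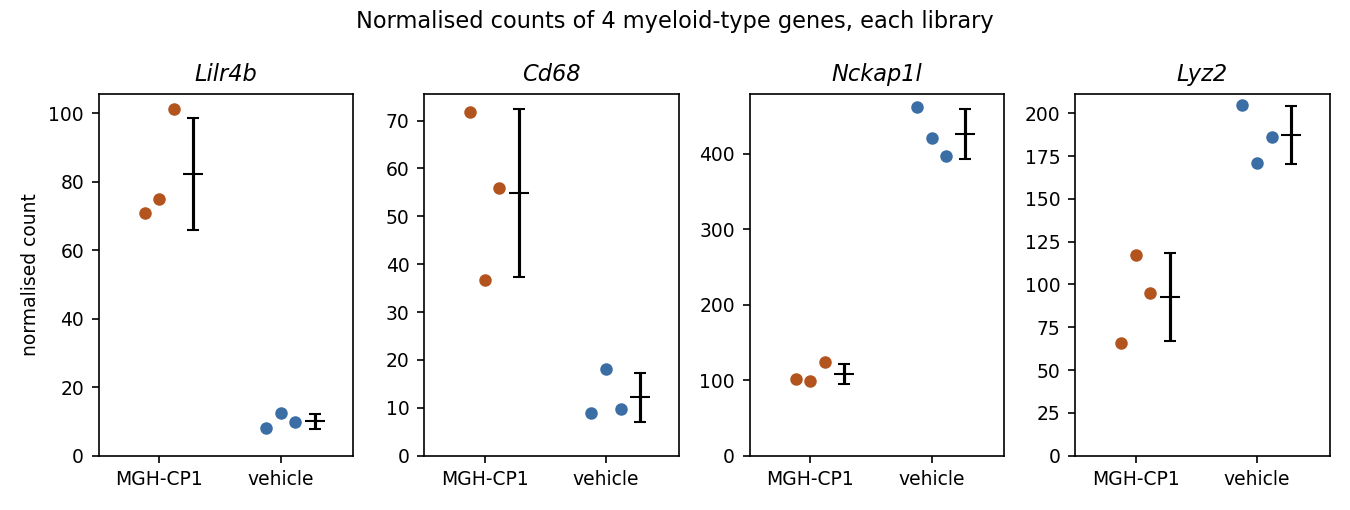
Normalised counts (vertical axes, each from 0) of the 4 genes in every library, with MGH-CP1 left of vehicle; points are libraries and the bar beside them is the mean with its SD (n = 3). In each panel all MGH-CP1 points lie on 1 side of all vehicle points; as a ratio of the nearest libraries the gap is narrowest for Lyz2, at 1.46.

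Among receptors, Lilr4b (ENSMUSG00000112023, GRCm38 chr10:51480632-51486703, plus strand) had 61, 53 and 85 counts with MGH-CP1, against 9, 15 and 14 in vehicle. Normalised, these were 70.7, 74.9 and 101 with MGH-CP1, against 7.94, 12.3 and 9.77 in vehicle. The lowest MGH-CP1 library stood 5.74 times above the highest vehicle library. The log2 change was 3.02 (SE 0.29; edgeR quasi-likelihood fit, Benjamini-Hochberg adjusted p = 1.27e-05), and ranked 17 among the 175 rises.

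Lilr4b lies 4252 bases before Lilrb4a on the same strand. Lilrb4a encodes gp49B, which, unlike gp49A, has an inhibitory tail. Their coding sequences have 909 bases for Lilr4b and 1005 for Lilrb4a in the GENCODE M21 annotation. Over the 907 aligned coding bases the genes are 96.03% identical, with 100 bases in gaps left out. The stretches below, coding bases 71 to 160 of each gene, were chosen from a part without gaps. Capitals mark the 4 differing bases (GRCm38, plus strand, chr10:51481140-51481229 for Lilr4b and chr10:51491434-51491523 for Lilrb4a).
Lilr4b: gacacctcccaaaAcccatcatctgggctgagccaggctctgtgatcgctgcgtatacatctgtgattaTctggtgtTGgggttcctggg
Lilrb4a: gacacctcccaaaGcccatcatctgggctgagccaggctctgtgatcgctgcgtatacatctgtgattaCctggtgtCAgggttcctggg

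Of all distinct 50-base windows in annotated Lilr4b transcripts, 24.1% also occur in Lilrb4a, and 8.47% of 100-base windows do. A further annotated gene, Gm49339, overlaps Lilr4b on the same strand. Reads from such stretches cannot be placed in Lilr4b by sequence alone, and the read length is not given in the sources used here. Lilrb4a itself had 18, 10 and 12 counts with MGH-CP1, against 2, 0 and 1 in vehicle, so it was higher in every treated library. The 40 counts with MGH-CP1 against 3 in vehicle, divided by the size factors, gave a ratio of 20.9 (95% exact binomial interval 6.66 to 106, counting error only). Its fitted log2 change, which depends on the prior count, was 4.18 (edgeR adjusted p = 0.000167); without vehicle replicate 1 it was 5.06. Lilrb4a made up 16.7% of the pair's counts with MGH-CP1 (95% exact interval 12.2% to 22.1%) and 7.32% in vehicle (1.54% to 19.9%). These intervals pool the libraries of a group and cover counting error only. By library the share was 22.8%, 15.9% and 12.4% with MGH-CP1, against 18.2%, 0% and 6.67% in vehicle, so the groups overlapped, and the difference was not tested. Of 16 symbols of related receptor genes looked for, not all of them separate genes, these 2 were in the table.

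**Figure D2:**
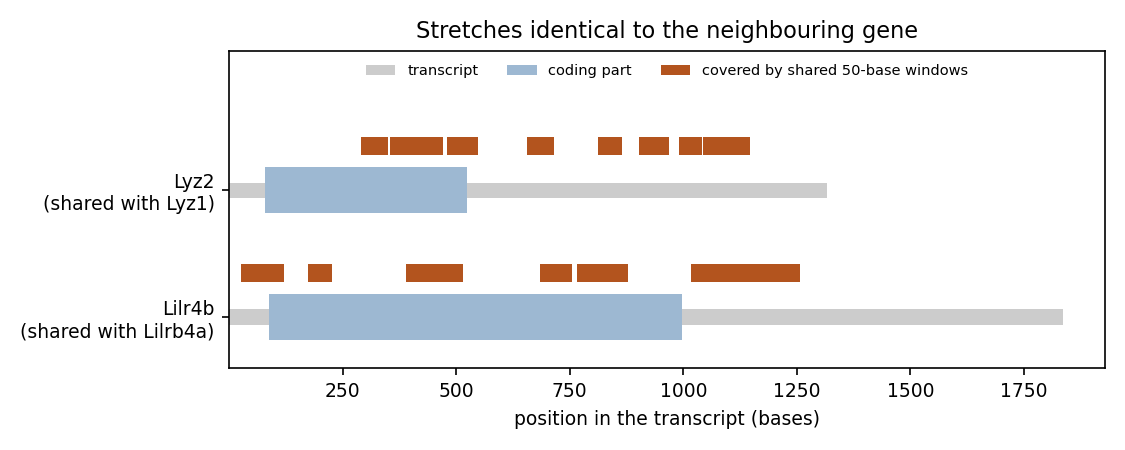
For Lyz2 and Lilr4b, the transcript with the longest coding part is drawn by position in bases, with that part in blue. Above are the stretches covered by 50-base windows that also occur in the neighbouring copy (Lyz1 or Lilrb4a). Lyz2 has 8 such stretches, the longest of 118 bases, and Lilr4b has 6, the longest of 241 bases.

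Of the lysosomal genes, Cd68 (ENSMUSG00000018774, chr11:69664213-69666153, minus strand) had 62, 26 and 47 counts with MGH-CP1, against 10, 22 and 14 in vehicle. Normalised, these were 71.8, 36.7 and 55.9 with MGH-CP1, against 8.82, 18.1 and 9.77 in vehicle. MGH-CP1 replicate 2 was the lowest of its group and vehicle replicate 2 the highest of its own, and the first still stood 2.03 times above the second. The log2 change was 2.17 (SE 0.37; edgeR adjusted p = 0.000368). Its coefficient of variation, 32.1% with MGH-CP1 and 41.6% in vehicle, was the highest of the 4 genes in each group. Its variance was 4.28 times that of counting alone with MGH-CP1 and 2.60 times in vehicle, which was not the highest of the 4 in either group. No 50-base window of its transcripts occurs in another annotated gene. Of 33 genes of lysosomal membranes and enzymes looked for, Cd68 was the only entry in the MGH-CP1 table. Lysosomal genes outside that list were not counted.

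Since MGH-CP1 acts on TEAD proteins, the promoter windows (250 bases before to 50 after the start, RefSeq, GRCm38.p6) were searched on both strands for the TEAD motif GGAATG. The PU.1 motif GAGGAA, of a factor of myeloid cells, and the AP-1 motif TGANTCA were searched too. Windows were found for 3 of the 4 genes. The TEAD letters were in none of the 3 and in 14.7% of all 32851 windows. Cd68 held the PU.1 letters at 2 places (28.3% of all windows have at least 1) and the AP-1 letters at 2 places (7.81% of all windows). The windows of Lilr4b and Lyz2 held none of these motifs. A match is a description of letters only. The Cd68 window, on the minus strand at chr11:69666121-69666420, is shown with its matches in capitals; the AP-1 matches begin at positions -149 and -24 from the start and do not overlap those of PU.1.
Cd68: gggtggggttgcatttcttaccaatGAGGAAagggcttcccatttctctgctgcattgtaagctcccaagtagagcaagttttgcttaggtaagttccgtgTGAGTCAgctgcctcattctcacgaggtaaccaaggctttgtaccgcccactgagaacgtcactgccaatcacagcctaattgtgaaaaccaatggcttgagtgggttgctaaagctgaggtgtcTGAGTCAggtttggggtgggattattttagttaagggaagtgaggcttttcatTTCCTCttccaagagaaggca

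Lyz2, the lysozyme gene of macrophages (ENSMUSG00000069516, chr10:117277331-117282321, minus strand), had 57, 83 and 80 counts with MGH-CP1, against 232, 208 and 267 in vehicle. Normalised, these were 66.0, 117 and 95.1 with MGH-CP1, against 205, 171 and 186 in vehicle. The lowest vehicle library was 1.46 times the highest MGH-CP1 library, the narrowest gap of the 4 genes. The log2 change was -1.02 (SE 0.21; edgeR adjusted p = 0.00102), and ranked 174 among the 180 falls. Lyz2 was only just inside the table: in the authors' deposited table its log2 change was -1.02, and the smallest size listed was 1.00. Without MGH-CP1 replicate 1, the lowest library, its log2 change was -0.82. With MGH-CP1 its variance was 5.70 times that of counting, against 1.80 times in vehicle.

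Lyz2 has a near-copy of its own, Lyz1, the lysozyme gene of Paneth cells, which lies 5475 bases away on the same strand and is not in the table. The coding sequences, of 444 bases each, are 95.05% identical. Their first 90 coding bases are shown. Within this stretch, the genes differ only at the 7 bases in capitals (GRCm38, minus strand, chr10:117282153-117282242 for Lyz2 and chr10:117292749-117292838 for Lyz1).
Lyz2: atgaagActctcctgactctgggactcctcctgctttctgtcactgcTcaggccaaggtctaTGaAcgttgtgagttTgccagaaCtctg
Lyz1: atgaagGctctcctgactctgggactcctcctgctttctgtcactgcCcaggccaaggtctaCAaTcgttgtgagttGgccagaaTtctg

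Lyz1 holds 15.4% of the 50-base windows of Lyz2 and 1.97% of its 100-base windows. No other annotated gene shared a window of either length with Lyz2. How the deposited counts treated reads that match both genes is not given in the sources used here.

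Nckap1l, the actin-regulating gene (ENSMUSG00000022488, chr15:103453794-103498810, plus strand), had 88, 70 and 104 counts with MGH-CP1, against 523, 513 and 568 in vehicle. Normalised, these were 102, 98.9 and 124 with MGH-CP1, against 461, 421 and 396 in vehicle. The lowest vehicle library was 3.21 times the highest MGH-CP1 library. The log2 change was -1.98 (SE 0.15; edgeR adjusted p = 4.69e-06), and ranked 36 among the 180 falls. Its coefficients of variation, 12.5% with MGH-CP1 and 7.68% in vehicle, were the lowest of the 4 genes. Its variance was 1.36 times that of counting alone with MGH-CP1 and 3.16 times in vehicle, and the vehicle value was the highest of the 4 genes. None of its 50-base windows occurs in another annotated gene, and its coding sequence is 62.38% identical to that of Nckap1. Of 11 genes of WAVE complex subunits and their relatives, Nckap1l was the only entry in the table. Pde1b, a calcium-dependent cyclic nucleotide phosphodiesterase gene that begins 4223 bases after the end of Nckap1l on the same strand, was listed as well, with a log2 change of -1.68 in the authors' deposited table.

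Per length, the order of the 4 genes differed between the groups. FPKM used deposited gene lengths of 5439 bases for Lilr4b, 5935 for Nckap1l, 1257 for Cd68 and 1316 for Lyz2. The transcripts with the longest coding part have 1836, 4725, 1008 and 1316 bases, in the same order. Which gene stands above which can shift with the length used, and no other length was tried. With MGH-CP1, Lyz2 stood at 2.50 ± 0.693 FPKM, Cd68 at 1.55 ± 0.496, Nckap1l at 0.647 ± 0.0809 and Lilr4b at 0.537 ± 0.108 (SD, n = 3). The libraries of Lyz2 and Cd68 overlapped, as did those of Nckap1l and Lilr4b. In vehicle, Lyz2 stood at 5.08 ± 0.453 FPKM, Nckap1l at 2.56 ± 0.190, Cd68 at 0.347 ± 0.144 and Lilr4b at 0.0657 ± 0.0144, with no overlap between neighbours in that order. Cd68 thus came after Lyz2 with MGH-CP1 and after Nckap1l in vehicle. Summed over the 4 genes, FPKM was 4.88 to 5.55 per MGH-CP1 library and 7.75 to 8.60 per vehicle library. The 2 genes that rose had the lowest levels in vehicle.

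**Figure D3:**
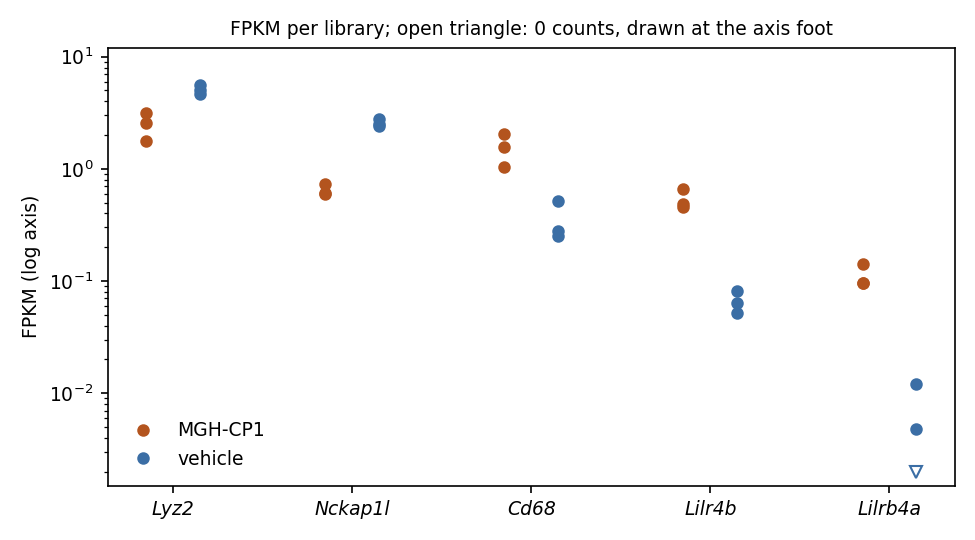
FPKM (log axis) of the 4 genes, and of Lilrb4a, in each library, with MGH-CP1 left of vehicle. In vehicle the 4 genes spread from 0.0657 for Lilr4b to 5.08 for Lyz2 on average, and with MGH-CP1 from 0.537 to 2.50; 1 vehicle library had 0 counts of Lilrb4a.

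Of the 43 macrophage and monocyte genes looked for, 5 were in the table and all 5 were tested, 3 higher (Lilr4b, Lilrb4a and Cd68) and 2 lower (Nckap1l and Lyz2). That list was written with earlier results known, so the 5 are no independent count. None of 16 neutrophil genes, 23 general leukocyte genes or 16 lymphoid and mast cell genes was listed. The median size of the log2 change was 2.07 over the 4 genes and 1.45 over the 355 tested.

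**Figure D4:**
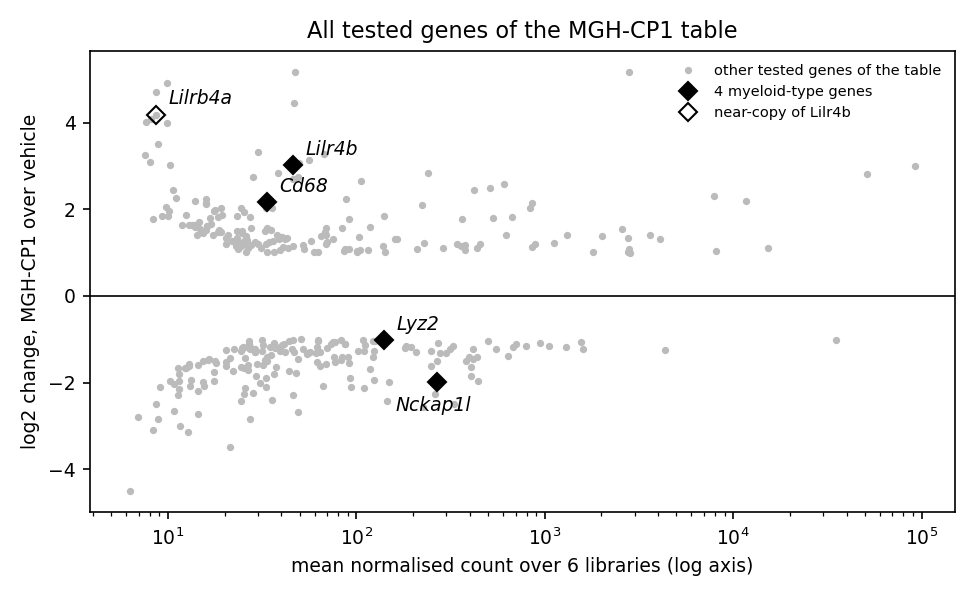
Each tested gene of the MGH-CP1 table by its mean normalised count over 6 libraries (log axis) and its log2 change of MGH-CP1 over vehicle; filled diamonds are the 4 genes and the open diamond is Lilrb4a. Lilr4b and Cd68 lie among the rises, at mean normalised counts of 46.1 and 33.5, while Lyz2 sits at the inner edge of the falls, at -1.02.

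The listed genes whose pattern over the 6 libraries was most like each of the 4 were found by Pearson's r of log2(normalised count + 1), among the 235 genes in the upper part of the table by mean normalised count, split at the median. These r values rest on the same libraries and mostly follow the difference between the groups. For Lilr4b they were Slc7a2, a cationic amino acid transporter gene (r = 0.999), the nuclear long noncoding RNA Malat1 (0.991) and Spp1, which encodes osteopontin (0.991). For Cd68 they were Ltc4s, the leukotriene C4 synthase gene (0.974), the kinase gene Map3k9 (0.972) and Amt, of the glycine cleavage system (0.964). For Nckap1l they were Arc, an activity-induced gene (0.998), its neighbour Pde1b (0.997) and Galnt18 (0.997). For Lyz2 they were Nol4 (0.982), the transcription factor gene Bcl11b (0.981) and the listed gene Gm6421 (0.980).

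The direction and call of each of the 4 genes held in each of the 15 alternatives run, and only the scale of the fold moved. Nearly all tested genes were called in these alternatives too. With TMM factors over the listed genes 352 of 354 were called, and with limma on log2(FPKM + 1) 331 of 355. All were picked for a change on these libraries, so the outcome says nothing particular about the 4. With limma on log2(FPKM + 1), whose pseudocount exceeds the levels of Lilr4b and of Cd68 in vehicle, the log2 change of Lilr4b was 0.53 and that of Cd68 0.91. With vehicle counts thinned to the mean MGH-CP1 depth, the log2 changes were 2.92 for Lilr4b, 2.40 for Cd68, -1.96 for Nckap1l and -0.93 for Lyz2.

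**Figure D5:**
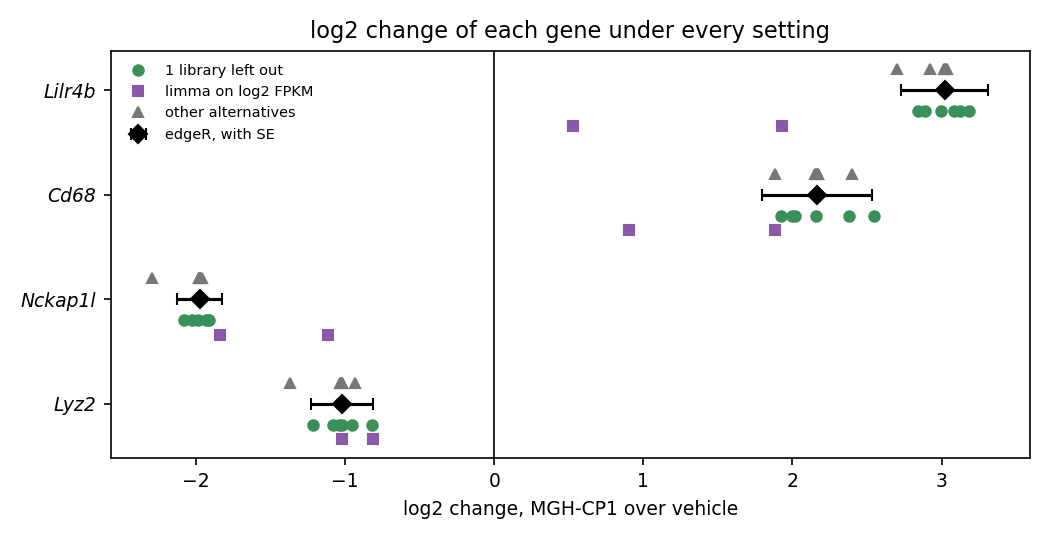
log2 change of MGH-CP1 over vehicle for the 4 genes: black diamonds are edgeR's values with their SE, and the other marks are the alternatives. No mark crosses 0, and for Lilr4b and Cd68 the marks nearest to it are those of limma with a pseudocount of 1, at 0.53 and 0.91.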

How the data were processed

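Per the labels' protocols, RNA was poly(A)-selected and copied with random primers, with no strand mark, so antisense reads cannot be told apart. Per the submitters' processing notes, the tools included DESeq2 1.20.0, featureCounts 1.5.0-p3, HISAT2 2.0.5 and fastp; which annotation and build they ran on is not given in the sources used here. All 471 gene identifiers of the MGH-CP1 table are in GENCODE M21 (GRCm38), 464 with the same start and end, the 4 genes among them.

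The deposited table holds the authors' raw counts per gene and library. It also holds the authors' normalised signal, in which every library has 1 size factor dividing its counts, their FPKM, their log2 fold change, and their p-values with adjusted p-values. Total counts were recovered from count, FPKM and gene length.

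Counts of all listed genes in the 3 MGH-CP1 and 3 vehicle libraries were fitted with edgeR 4.0.16 (R 4.3.3), by the quasi-likelihood test (two-sided), with the authors' size factors and filterByExpr (minimum count 10). The Benjamini-Hochberg adjustment of its p-values ran over the 355 genes tested, with a threshold of 0.05. Replicate libraries differed by more than sampling noise: the chi-square of each pair was 14.9 to 235 times its degrees of freedom. It was summed over the listed genes, and variable genes with many counts weigh most in it. For the 4 genes, the variance was 0.57 (Lilr4b in vehicle) to 5.70 (Lyz2 with MGH-CP1) times that of counting. The test was also run on simulated counts with known changes. DESeq2 1.42.0 and limma 3.58.1 gave alternatives. Transcripts were compared with Biopython 1.88.

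The 4 genes and the lists were chosen with earlier results of these data known, so no test here is independent evidence. Genes named are the 4, some of the list genes, neighbours within 15 kb that were listed, and the 3 of most like pattern for each. The overlapping gene Gm49339 and the ribosomal RNA gene CT010467.1 are named too. Proteins were not used here. A gene of the macrophage and monocyte list is not reported here, and the list counts leave it out.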

Additional observations from a re-analysis of the deposited data

How the results depend on the processing

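Lilr4b, Cd68, Nckap1l and Lyz2, and also Lilrb4a and Vwf, kept their direction and their call in each of the 15 alternatives. Nearly all tested genes were called in those alternatives as well, so this is not particular to these genes. Without 1 library in turn, the log2 change was 2.84 to 3.19 for Lilr4b, 1.92 to 2.55 for Cd68, -2.08 to -1.92 for Nckap1l and -1.22 to -0.82 for Lyz2. The largest adjusted p of the 4 over the alternatives was 0.00502, for Lyz2 by limma on log2(FPKM + 1). That scale gave -1.11 for Nckap1l and -0.81 for Lyz2; limma on log2(FPKM + 0.1) gave 1.93 for Lilr4b and 1.88 for Cd68. TMM factors over the listed genes moved the median log2 change by -0.33, and gave 2.70 for Lilr4b, 1.88 for Cd68, -2.29 for Nckap1l and -1.37 for Lyz2. All 355 of the listed genes that were tested were called (175 higher, 180 lower). So were all 187 tested among protein-coding genes alone (86 higher, 101 lower). With no count filter, all 471 listed genes were tested and called (270 higher, 201 lower). With the replicate number as a block the count was 355 again. Same-numbered libraries did not deviate together (r = 0.03, -0.11 and 0.03), and not every library correlated best with its own number. Counts of 9 to 22 per vehicle library limit the precision for Lilr4b and Cd68.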

Other observations

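None of the 4 genes is in the dinaciclib table, which lists only genes with a tumour annotation, so their levels with dinaciclib were not analysed here. The smallest log2 change in that table is 1.00 in size, so a change is a condition of being listed there too. Of the 98 leukocyte genes, that table lists Lcp1, which encodes the actin-bundling protein L-plastin. Lcp1 stood at 90.4, 75.0 and 102 FPKM with dinaciclib, against 31.1, 29.7 and 29.3 FPKM in vehicle. Its raw counts were 2184 to 2783 with dinaciclib, against 9417 to 11130 in vehicle. FPKM is scaled to each library's total, so whether the amount of Lcp1 RNA per cell changed was not tested. In the authors' deposited table the log2 change with dinaciclib was 1.44 for Lcp1. The dinaciclib libraries held 2541162 to 3316779 counted reads, against 31852117 to 40020833 in vehicle. Lcp1, listed here as a general leukocyte gene, stood above Lyz2 (5.08 ± 0.453 FPKM, SD, n = 3) in every vehicle library.

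The share of the gene span that counts as gene length differed widely among the 4 genes: 89.6% for Lilr4b, 64.8% for Cd68, 26.4% for Lyz2 and 13.2% for Nckap1l. The genes that rose have the larger shares. Over all protein-coding genes of the table, the median share was 20.6% for the 102 higher genes and 18.4% for the 109 lower genes.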
